A study of Homo sapiens with 3 samples.

Results

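The active centromeric alpha satellite arrays of the 22 human autosomes were examined for peaks of H3K27me3, the histone mark that Polycomb repressive complex PRC2 places on silenced chromatin. The arrays were taken as 22 windows of the T2T-CHM13 assembly, 1 on each autosome, with edges given to 0.1 Mb. Members were all peaks that overlapped a window by at least 1 bp, which were 29238 of 181157 control peaks and 29626 of 105729 siORCA peaks. The windows spanned 64.2 Mb, or 2.10% of the chromosomes.

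The study profiled U2OS cells, a human osteosarcoma line, by ChIP-seq. One library came from cells transfected with a control (gl3), 1 from cells transfected with siORCA, directed at the origin recognition complex-associated protein ORCA, and 1 was an input from cells with no treatment named, whose values were not analysed here. Each ChIP library had 1 list of broad peaks, so no difference between conditions could be tested and every value below describes these 2 lists. The read depth is not given in the sources used here, so a base without a peak was not shown to lack the mark. U2OS arrays may also differ in length and sequence from those of the assembly, since alpha satellite arrays vary widely between genomes.

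Alpha satellite is the tandem repeat of human centromeres. Its monomers are grouped into higher-order repeats, units of several monomers that are copied head to tail over megabases, and on each chromosome 1 such array, the active one, carries the centromeric histone CENP-A and the kinetochore. Active arrays belong to 3 main suprachromosomal families of related monomers, and some chromosomes share nearly the same higher-order repeat, as 1, 5 and 19, 13 and 21, and 14 and 22 do. The surrounding pericentromeric heterochromatin is known mainly for H3K9 methylation, whereas H3K27me3 is best known on silenced developmental genes. ORCA is known to associate with the origin recognition complex and with heterochromatin.

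The arrays were about equally covered in the 2 lists, whereas the chromosomes outside them were covered less in siORCA. Peaks covered 26.0 Mb of the windows (40.5%) in control cells and 27.8 Mb (43.3%) after siORCA, a ratio of siORCA to control of 1.07. Outside the windows, 180.8 Mb was covered in control cells and 64.7 Mb after siORCA, a ratio of 0.358. The windows thus held 12.6% of the covered length of the control list and 30.1% of that of the siORCA list. Within 1 Mb on each side of the windows, 14.3 Mb was covered in control cells and 5.20 Mb after siORCA, a ratio of 0.365. The number of peaks in the windows was also similar, with a ratio of 1.01, against 0.501 outside them. With only peaks of a −log10 q of at least 2, the direction turned, to a ratio of 0.968 for covered length and 0.933 for peaks. Outside the windows the ratio of covered length was then 0.312. With only peaks of a fold of at least 3, the ratio of covered length rose to 5.60 in the arrays and to 0.664 outside them. That of the whole lists, which include the arrays, was 0.911. That limit lies between the median folds of the control list (2.73) and of the siORCA list (3.29).

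By array, 13 of 22 were covered at least as widely after siORCA as in control cells. Of the 1 Mb bins with any peak over all chromosomes, 5.83% met that rule. The count of arrays was 11 for peaks whose −log10 q reached 2, 17 with equal numbers of peaks and 22 for peaks whose fold reached 3. Equal numbers removed control peaks alone, so that count could not fall. The direction of single arrays, and their order, therefore hold for the lists as deposited: the limit on q turned 4 arrays and made chromosome 13, not 9, the lowest. Each array under 1 also turned with the limit on fold. That limit kept 5102 of 29238 control and 26828 of 29626 siORCA peaks in the arrays, so those turns say little about single arrays. In 2 arrays the covered length in siORCA was at least 1.5 times that in the control, against 2.28% of those bins, and in 0 arrays it was at least 1.5 times higher in the control, against 87.4% of the bins. In bins of 100 kb, 408 of 633 bins inside the arrays (64.5%) were covered at least as much in siORCA, against 14.1% of all bins with any peak. At least 1.5 times as much was covered in siORCA in 115 bins (18.2%), against 9.51%, and in the control in 62 bins (9.79%), against 79.8%. The ratio of each array exceeded the ratio of its own flanks and that of the rest of its own chromosome in 22 of 22 cases. The 22 array ratios ran from 0.789 to 1.84 with a median of 1.09, the flank ratios from 0.0261 to 0.779, and the ratios of the rest of the chromosomes from 0.183 to 0.655.

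**Figure D1:**
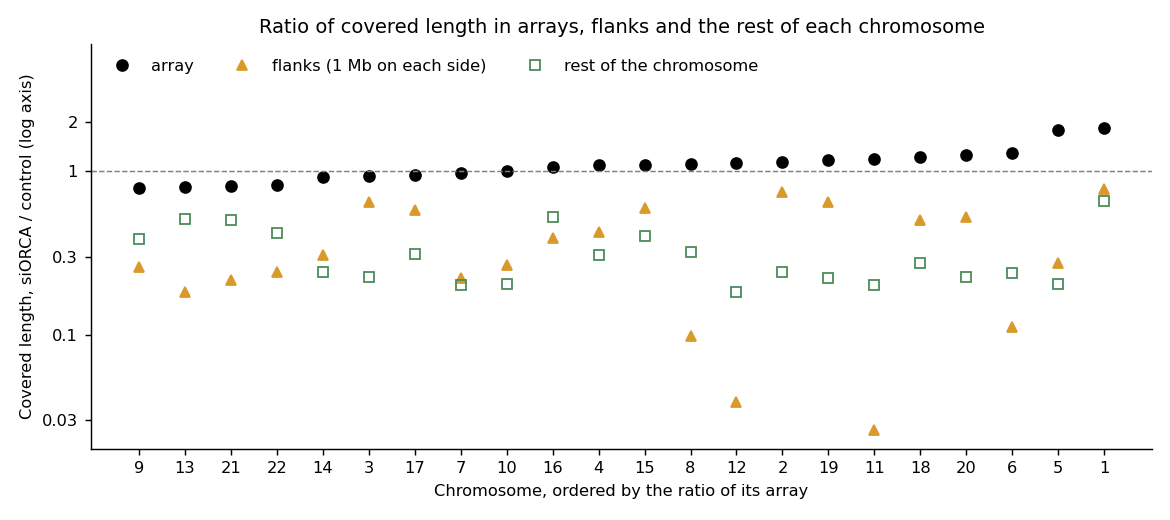
Ratio of covered length in siORCA to that in the control (log axis) for each array (circles), the 1 Mb on each side of it (triangles) and the rest of its chromosome (squares), with chromosomes ordered by the array. Array ratios lie between 0.789 and 1.84 and stand above both other ratios on all 22 chromosomes; the dashed line marks equal coverage.

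Arrays that share a higher-order repeat are given side by side, and since they share sequence their values are not independent. Over all deposited peaks, the 2 highest ratios belonged to chromosomes 1 and 5, which form a group with chromosome 19 in suprachromosomal family 1. On chromosome 1 (121.8 to 126.3 Mb), 0.917 Mb (20.4% of the window) was covered in control cells and 1.68 Mb (37.4%) after siORCA, a ratio of 1.84. On chromosome 5 (47 to 49.6 Mb) the lengths were 0.518 Mb (19.9%) and 0.926 Mb (35.6%), a ratio of 1.79. These 2 windows were close in coverage within each list, and siORCA was higher in 44 of 45 and 26 of 26 of their 100 kb bins. On chromosome 19 (25.8 to 29.8 Mb), the most thinly covered window, the lengths were 0.288 Mb (7.20%) and 0.339 Mb (8.47%), a ratio of 1.18. Limited to peaks whose −log10 q reached 2, the ratio of chromosome 19 turned to 0.586. When the control list was cut by −log10 p to the number of siORCA peaks, which cannot lower a ratio, that of chromosome 1 was 2.91. The 3 arrays together had a pooled ratio of 1.71. Without them, the ratio of covered length over the other 19 arrays was 1.02, and that of peaks fell below 1, to 0.979. Leaving out chromosome 1 alone also took the ratio of peaks below 1, to 0.997.

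The pair of chromosomes 13 and 21, of family 2, showed the opposite. On chromosome 13 (15.5 to 17.5 Mb), 1.42 Mb (70.9%) was covered in control cells and 1.14 Mb (56.8%) after siORCA, a ratio of 0.801, or 0.429 for peaks whose −log10 q reached 2. On chromosome 21 (11 to 11.3 Mb), the shortest window, 0.271 Mb (90.2%) and 0.219 Mb (72.9%) were covered, a ratio of 0.808. In both windows the control was higher in every 100 kb bin, 20 and 3 bins. In the pair of chromosomes 14 and 22, also of family 2, the control coverage was nearly equal. On chromosome 14 (10.1 to 12.7 Mb) 1.27 Mb (48.9%) was covered in control cells and 1.17 Mb (45.0%) after siORCA, a ratio of 0.920. On chromosome 22 (12.8 to 15.7 Mb) the lengths were 1.42 Mb (48.9%) and 1.16 Mb (40.1%), a ratio of 0.818, or 0.509 for peaks whose −log10 q reached 2. Among the 5 acrocentric chromosomes, whose short arms carry the ribosomal DNA, the array of chromosome 15 (16.7 to 17.7 Mb) alone had a ratio above 1. There 0.702 Mb (70.2%) was covered in control cells and 0.764 Mb (76.4%) after siORCA, a ratio of 1.09.

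The other arrays of family 1 lay on chromosomes 3, 6, 7, 10, 12 and 16. Chromosome 6 (58.3 to 61.1 Mb) had the highest ratio of these, 1.30, with 0.713 Mb (25.5%) covered in control cells and 0.927 Mb (33.1%) after siORCA, and siORCA was higher in 28 of 28 bins. On chromosome 7 (60.4 to 63.7 Mb), among the most covered arrays by length, 2.002 Mb (60.7%) and 1.96 Mb (59.5%) gave a ratio of 0.981, or 1.04 for peaks whose −log10 q reached 2. On chromosome 10 (39.6 to 41.7 Mb), 0.881 Mb (41.9%) and 0.879 Mb (41.8%) gave a ratio of 0.998. Those 2 arrays were thus near equal in the 2 lists. Chromosome 12 (34.6 to 37.2 Mb) had 1.32 Mb (50.7%) under control peaks and 1.49 Mb (57.2%) under siORCA peaks, which gave 1.13. Chromosome 16 (35.8 to 37.8 Mb) had 0.932 Mb (46.6%) under control peaks and 0.983 Mb (49.1%) under siORCA peaks, which gave 1.05, or 0.831 for peaks whose −log10 q reached 2. Chromosome 3 (91.7 to 96.4 Mb) had 1.44 Mb (30.6%) under control peaks and 1.35 Mb (28.6%) under siORCA peaks, which gave 0.937. Of the 9 family 1 arrays, 6 had a ratio of at least 1, and their median ratio was 1.13.

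In family 2, apart from the acrocentric chromosomes, the array of chromosome 18 (16 to 20.9 Mb) held the longest covered length of any array in both lists. There 2.45 Mb (50.1%) was covered in control cells and 2.98 Mb (60.7%) after siORCA, a ratio of 1.21, and siORCA was higher in 44 of 49 bins. On chromosome 20 (26.9 to 29.1 Mb) 0.945 Mb (43.0%) and 1.18 Mb (53.9%) gave a ratio of 1.25. The array of chromosome 9 (45 to 47.6 Mb) had a ratio of 0.789, the lowest of the 22 over all deposited peaks, with 1.87 Mb (72.1%) covered in control cells and 1.48 Mb (56.9%) after siORCA. The control was higher there in all 26 bins, as on chromosomes 13 and 21, the other densely covered windows of the control list with low ratios. Chromosome 4 (49.7 to 55.2 Mb) had 1.55 Mb (28.1%) under control peaks and 1.68 Mb (30.5%) under siORCA peaks, which gave 1.08. Chromosome 2 (92.3 to 94.7 Mb) had 0.581 Mb (24.2%) under control peaks and 0.658 Mb (27.4%) under siORCA peaks, which gave 1.13, or 0.681 for peaks whose −log10 q reached 2. Chromosome 8 (44.2 to 46.3 Mb) had 1.12 Mb (53.2%) under control peaks and 1.23 Mb (58.8%) under siORCA peaks, which gave 1.11. Of the 11 family 2 arrays, 6 had a ratio of at least 1, with a median of 1.08.

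The 2 arrays of family 3, on chromosomes 11 and 17, differed in direction. On chromosome 11 (51 to 54.5 Mb) 1.67 Mb (47.7%) was covered in control cells and 1.98 Mb (56.5%) after siORCA, a ratio of 1.18. On chromosome 17 (23.9 to 27.5 Mb) 1.74 Mb (48.3%) and 1.65 Mb (45.8%) gave a ratio of 0.947. Across the 22 arrays, those more densely covered in the control were also more densely covered in siORCA, with Pearson's r of 0.890 and Spearman's rho of 0.876. The ratio ran the other way against control coverage (r of −0.635, rho of −0.642). These correlations are descriptions over 22 arrays that share 2 libraries and, in part, sequence, and the ratio contains the control coverage.

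**Figure D2:**
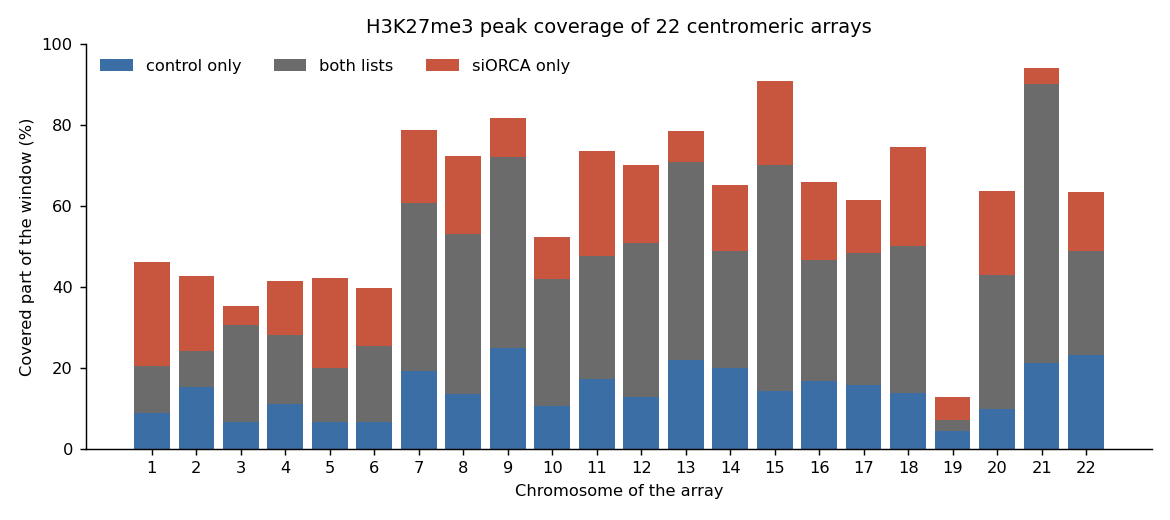
Part of each window (%) under peaks of the control list only, of both lists and of the siORCA list only, stacked, for the arrays of chromosomes 1 to 22. The stack is lowest on chromosome 19 and highest on chromosome 21, where the control covered 90.2% of the window; the siORCA-only part is largest on chromosomes 11 (25.9%) and 1 (25.8%).

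Although the covered lengths were close, the covered bases were not all the same. In the arrays, 17.5 Mb was covered in both lists, 8.55 Mb in the control only and 10.4 Mb after siORCA only. Control peaks overlaid 62.8% of the siORCA length, and siORCA peaks overlaid 67.1% of the control length. For peaks whose fold reached 3, the former was 12.1%. In the flanks these shares were 84.8% and 30.9%, and outside the arrays they were 74.8% and 26.8%. By length, the siORCA share was therefore lower in the arrays than in either comparison region, and the control share higher. The control share cannot exceed the ratio of siORCA to control length, which was 0.365 in the flanks and 0.358 outside the arrays. Its higher value in the arrays thus follows in part from their ratio of 1.07. By number of peaks the siORCA share was not lower in the arrays. By number, 85.5% of the control peaks in the arrays shared at least 1 bp with a siORCA peak (Wilson 95% limits 85.1 and 85.9%), against 33.7% of all control peaks. Of the siORCA peaks in the arrays, 81.7% shared at least 1 bp with a control peak (81.3 and 82.2%), against 79.9% in the flanks and 68.7% of all siORCA peaks. Each interval takes in counting error alone, and neighbouring peaks are not independent.

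Sharing has to be read against how full a window was, because a base placed anywhere in a window lands on a control peak as often as the window is covered. The part of the siORCA length under control peaks exceeded the control coverage of the window in 22 of 22 arrays. Over whole windows the margin was widest on chromosome 19, where 34.1% of the siORCA length was shared at a control coverage of 7.20%, 4.73 times as much. That window holds a 2.1 Mb stretch nearly empty in both lists, and the control covered 14.65% of the rest of it. The margin was narrowest on chromosome 15, where 73.1% was shared at a coverage of 70.2%, 1.04 times as much. A fuller window leaves less room for a margin, so this order partly follows how full the windows were. On chromosome 1 the share was 31.0% at a coverage of 20.4%, with 1.16 Mb covered in siORCA only, and on chromosome 2 it was 32.7% at 24.2%. The correlation of covered bases between the lists was highest on chromosomes 3 (0.734), 10 (0.569) and 6 (0.514). It was lowest on chromosomes 15 (0.115), 2 (0.121) and 11 (0.145). The chromosome 3 window also holds a stretch of 1.8 Mb nearly empty in both lists, and bins densely covered in both. Its correlation takes in that broad pattern as well as the placement of single peaks. The median correlation over arrays was 0.299, close to the 0.3005 of the flanks.

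Coverage changed more steeply at the window edges in siORCA than in the control, by medians over the edges. In the last 100 kb outside the windows, the median over 44 edges was 34.1% covered in control cells and 7.39% in siORCA, and in the initial 100 kb inside it was 50.3% and 37.2%. From 0.4 to 0.5 Mb inside, the medians were 47.9% and 51.0%. From 0.9 to 1 Mb outside they were 7.58% and 0.608%. In siORCA, the largest step of the fall in medians thus lay between the 2 bins of 100 kb that meet at the edge, with smaller changes on both sides. By means, these bins were covered over 40.0% inside and 19.8% outside in siORCA, and over 52.4% and 40.6% in control cells. The outermost 100 kb of the arrays was more covered in siORCA at 9 of 44 edges, whereas from 0.6 to 0.7 Mb inside this held at 31 of 40. With each window divided into 10 equal parts, the part at either end was covered at least as much in siORCA in 7 of 22 arrays, and each of the 8 inner parts in 13 to 16 arrays. Since the window edges are given to 0.1 Mb, the outermost bin can hold flanking sequence.

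**Figure D3:**
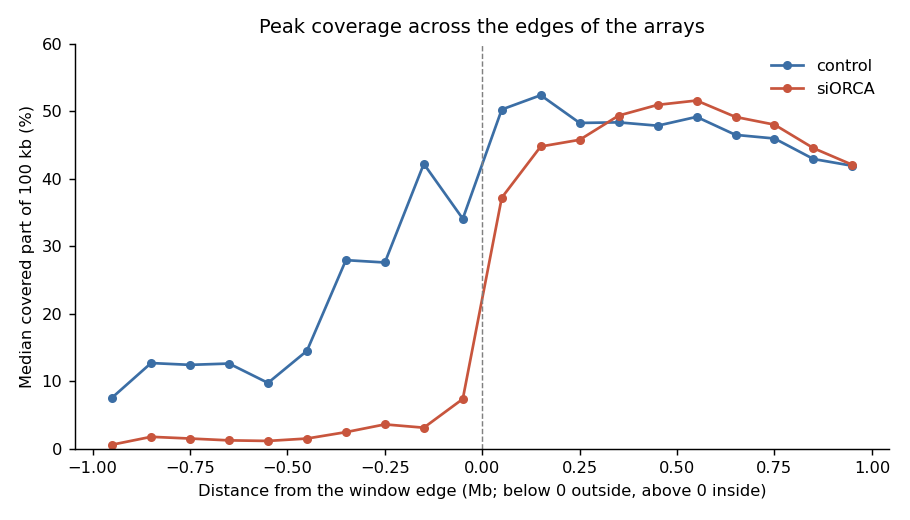
Median covered part (%) of 100 kb steps against the distance from the window edge in Mb, from 1 Mb outside (below 0) to 1 Mb inside (above 0), over 44 edges outside and 40 to 44 inside. The siORCA line climbs from 7.39% just outside to 37.2% just inside and meets the control line further in.

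The lowest flank ratios were on chromosomes 11, 12, 8 and 6. The array of chromosome 11 was covered over 56.5% in siORCA, and its flanks over 0.0271 Mb of 2 Mb, against 1.04 Mb in the control, a flank ratio of 0.0261. The flanks of chromosome 12 were covered over 0.668 Mb in control cells and 0.0260 Mb after siORCA, those of chromosome 8 over 0.385 Mb and 0.0379 Mb, and those of chromosome 6 over 0.172 Mb and 0.0191 Mb. On these chromosomes the siORCA peaks near the centromere therefore lay almost wholly in the array. The flanks of chromosomes 1 and 2 kept more of their coverage, with ratios of 0.779 and 0.747. As a share of its chromosome, the array of chromosome 18 held 78.9% of the siORCA covered length and 45.8% of the control covered length. That of chromosome 11 held 59.5% and 19.997%, and that of chromosome 5 held 32.8% and 5.28%.

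Coverage varied along the windows, and 3 windows held long interior stretches with almost no peaks in either list. Stretches were runs of at least 5 bins of 100 kb, each under 5% covered in both lists, a definition chosen after the lists had been seen. On chromosome 3, a stretch from 92.9 to 94.7 Mb held 15 control and 2 siORCA peaks, which covered 0.307% and 0.132%. The longest span without any siORCA peak in the 22 windows began there and ran on past its end, from 92902888 to 95367302 (2464 kb). The bin just before the stretch was covered over 36.8% in control cells and 29.8% in siORCA, and the bin just after it over 10.2% and 0%. Densely covered bins lay further out on both sides, with up to 91.2% of a bin in control cells and 95.3% in siORCA. On chromosome 4, a stretch from 50.9 to 51.9 Mb held 87 control and 21 siORCA peaks and was covered over 2.89% and 0.486%. Bins beside it just missed the limit, with 5.2%, 5.8% and 5.7% covered in the control, so its length depends on that limit. Blocks of another satellite, human satellite 1, are known to interrupt the centromeric alpha satellite of chromosomes 3 and 4, but the stretches were not tied to sequence here. On chromosome 19, a stretch from 26.4 to 28.5 Mb held 43 control and 132 siORCA peaks and was covered over 0.463% and 1.60%. In both lists these stretches thus stood apart from the rest of their windows. Without the stretches as so defined, the chromosome 3, 4 and 19 arrays had ratios of 0.939, 1.10 and 1.10.

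**Figure D4:**
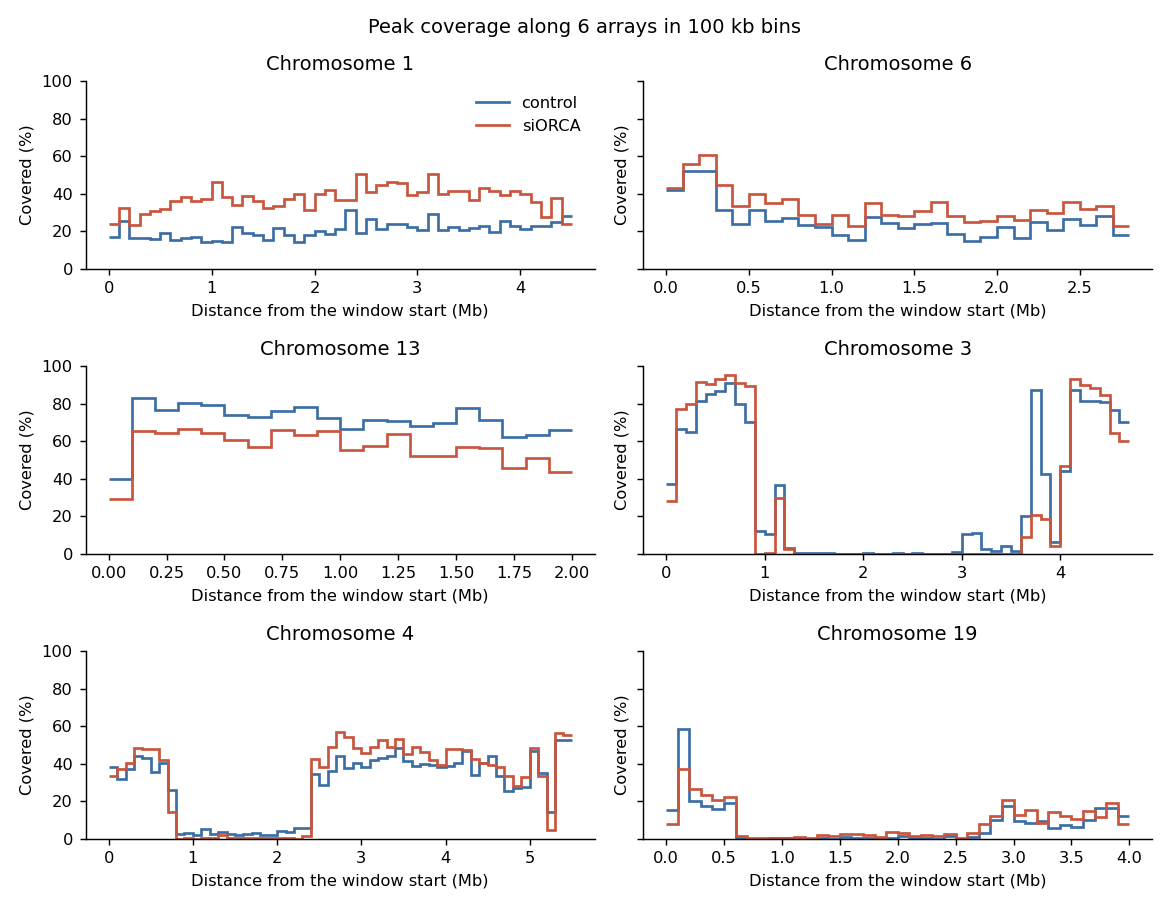
Covered part (%) of 100 kb bins against the distance from the window start in Mb, control and siORCA, for 6 arrays. On chromosomes 1 and 6 the siORCA line runs above the control line over nearly all bins, on chromosome 13 below it in 20 of 20 bins, and on chromosomes 3, 4 and 19 both lines fall close to 0 over the interior stretches.

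The longest span without a peak in the control was under 20 kb in all windows but those of chromosomes 3, 4, 13 and 19, and it had a median of 10.5 kb over the 22 windows. In siORCA the median was 13.9 kb. On chromosome 13 the longest peak-free span in both lists began at the window start, from 15500001, and ended at 15547937 in control cells and 15547963 in siORCA. On chromosome 17, coverage fell to a low of 10.9% of a bin in control cells and 13.1% in siORCA and rose to 84.2% and 71.5% elsewhere in the same window.

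The peaks of several arrays recurred at a regular distance, which was used as a check for tandem repetition, since higher-order repeats are tandem. Coverage was correlated with itself at shifts of 300 bp to 20 kb, and the highest local maximum of this autocorrelation was taken for each list. On chromosome 17 it lay at 2710 bp in the control (0.342) and 2700 bp after siORCA (0.217), and the next maxima followed at 5420, 8130, 10840 and 13560 bp in control cells and at 5430, 8110, 10850 and 13580 bp after siORCA. On chromosome 6 the control had maxima at 3050, 6110, 9160, 12210 and 15280 bp, and the siORCA list at 3070, 6110, 9150, 12210 and 15290 bp. The 2 lists thus showed the same ladder on each of these arrays. Chromosome 10 gave 2360 bp and 2370 bp in control cells and siORCA, chromosome 22 gave 2720 bp and 2750 bp, chromosome 4 gave 3240 bp and 3190 bp, and chromosome 3 gave 2890 bp and 2920 bp. The siORCA maxima of chromosomes 3 and 4 were less regular than those of chromosomes 17 and 6. Others lay at 4200 and 8400 bp on chromosome 3 and at 2570 and 5110 bp on chromosome 4. On chromosome 20 the distance was 2710 bp in control cells and 5440 bp, near its double, in siORCA.

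In all, 10 of 22 arrays had the same distance in both lists or 1 within 3% of its multiple by 2 or 3, on chromosomes 3, 4, 6, 10, 14, 16, 17, 18, 20 and 22. The same held in 7 of 43 flanks with peaks in both lists. With the commonest distance between peak starts in place of the autocorrelation, it held in 5 arrays, so the count depends on the measure. Chromosomes 1, 5 and 19, with the shared repeat of family 1, showed no common distance by autocorrelation, and on chromosome 1 its height was 0.031 in control cells and 0.030 in siORCA. For the other 12 arrays the peaks gave no check for tandem repetition. A common distance cannot tell an active array from another tandem array. The windows were not compared with sequence or with a satellite annotation here.

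**Figure D5:**
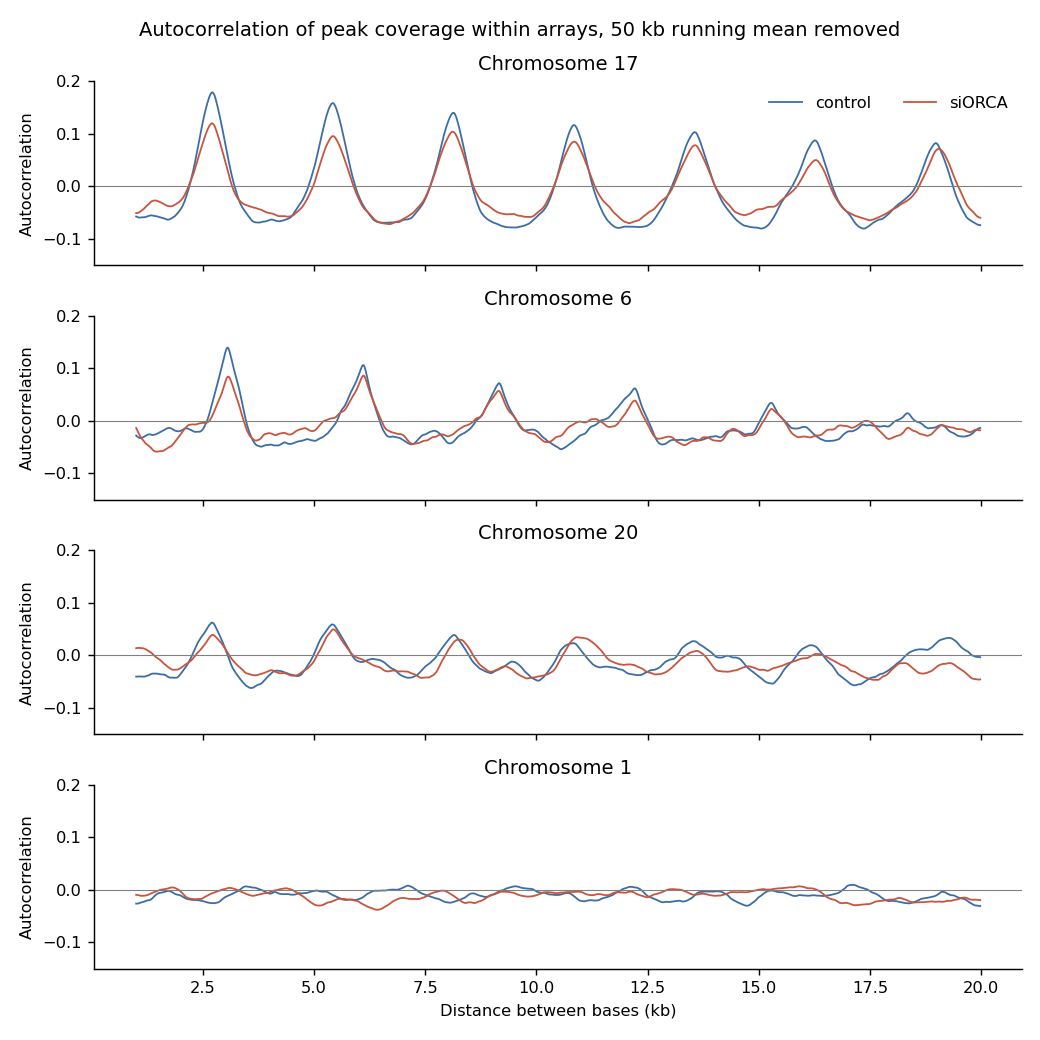
Autocorrelation of peak coverage against the distance between bases in kb for the arrays of chromosomes 17, 6, 20 and 1, control and siORCA, after removal of a 50 kb running mean. Chromosome 17 shows maxima at multiples of 2710 bp in both lists, and chromosome 1 shows none of comparable height.

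The array peaks did not reach the highest folds of either list. Their median fold over background, in the authors' own values, was 2.66 in control cells and 3.39 in siORCA, against 2.75 and 3.25 for peaks outside the arrays. Their highest folds were 5.79 and 6.80, against 10.1 and 24.5 outside. Of array peaks, 0.609% had a fold of 4 and above in the control, against 0.924% of peaks outside, and 8.90% in siORCA, against 6.87%. Folds were not compared between lists. The median fold of single arrays ran from 2.39 on chromosome 3 to 3.04 on chromosome 13 in the control, and from 3.25 on chromosome 2 to 3.62 on chromosome 10 in siORCA. The median −log10 q of array peaks was 2.12 in control cells and 2.03 in siORCA, above the 1.73 and 1.62 outside.

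Array peaks were wider than other peaks in siORCA, with medians of 613 bp and 368 bp, and somewhat wider in the control, with 560 bp and 506 bp. In siORCA, 30.5% of array peaks and 14.8% of other peaks reached 1 kb. In the control these shares were 27.8% and 28.0%. The 3 windows with the lowest ratios over all deposited peaks had the widest control peaks, with a median of 3253 bp on chromosome 21, 1319 bp on chromosome 13 and 1142 bp on chromosome 9, where siORCA had 1357, 824.5 and 768 bp. On chromosome 1 the order was the reverse, with 378 bp in control cells and 505 bp after siORCA.

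Among the array peaks of each list, the 3 widest and the 3 highest-fold peaks of at least 1 kb are named here. Outside the arrays, peaks were as wide as 2041 kb in the control and 982 kb in siORCA. In siORCA, the widest was on chromosome 3 from 95771583 to 95847832 (76.3 kb, fold 5.62), a region called as 10 peaks in the control, which covered 94.1% of it. Directly before it lay the 2 highest-fold siORCA array peaks of at least 1 kb, from 95753524 to 95758907 (5.89) and from 95759426 to 95771102 (5.87). Both were covered over 90.3% in the control. The next widest siORCA peaks were on chromosome 8 from 46272523 to 46312156 (39.6 kb, fold 4.13), across the window edge, and on chromosome 3 from 92345113 to 92382841 (37.7 kb, fold 3.37). The 3 highest-fold siORCA array peaks of at least 1 kb thus lay next to each other on one side of the empty stretch of chromosome 3.

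In the control, 2 of the 3 widest array peaks crossed a window edge. The one on chromosome 4 from 55199236 to 55305541 (106.3 kb, fold 3.65) had only 0.765 kb inside the window. The next were on chromosome 8 from 46226146 to 46279968 (53.8 kb, fold 3.30) and from 46280442 to 46324207 (43.8 kb, fold 3.36), and siORCA peaks covered from 94.6% to 96.9% of these 3. Among control array peaks of at least 1 kb, the 3 highest folds lay away from the window edges. They were on chromosome 3 from 95375295 to 95376817 (4.32), on chromosome 14 from 11195477 to 11196775 (4.14) and on chromosome 17 from 26276372 to 26277543 (4.06). Peaks of siORCA covered 15.5%, 52.2% and 80.5% of these 3 peaks.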

How the data were processed

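H3K27me3 ChIP-seq peaks came from 1 control and 1 siORCA library of U2OS cells. Per the submitters' processing notes, the tools were Trimmomatic, Bowtie2, SAMtools and bcl2fastq, and the build was T2T-CHM13. Points not given in the sources used here are the peak caller, its settings, the use of the input and the treatment of multiply aligned reads, which sets the signal in tandem repeats. The authors deposited 1 broadPeak list per library, with a fold (a ratio over background), −log10 p, −log10 q and a score per peak, and no read depth. The score was not used. The −log10 p and folds served only to filter or describe peaks within a list. Windows and groups of arrays were chosen with earlier results of these data known.

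Peaks were clipped to each window, and covered bases were counted with Python 3.11.15, NumPy 2.4.6 and pandas 2.3.3. Flanks were 1 Mb on each side. The last peak end stood for each chromosome's end. The X chromosome had no window. The functions for overlap and spacing were tested on simulated data. All arrays are described. The rule named in full the 5 highest, 5 lowest and 5 most covered arrays. It also named, in each list, the 3 widest and 3 highest-fold array peaks of at least 1 kb. Coordinates count from 1. No sequence of this assembly was at hand, so none is shown. Alternatives were limits on q and fold, equal numbers of peaks, shifted window edges, arrays left out, and other measures of overlap and spacing.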

Additional observations from a re-analysis of the deposited data

How the results depend on the processing

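No paired analysis was possible because each condition had 1 library, and no library could be left out. A −log10 q of at least 2 turned the ratio of covered length to 0.968 and of peaks to 0.933, and the arrays of chromosomes 2, 7, 16 and 19 to 0.681, 1.04, 0.831 and 0.586. The ratio of the whole lists, arrays included, was then 0.398, and that outside the arrays was 0.312. A fold of at least 3 kept 5102 control and 26828 siORCA peaks in the arrays and gave ratios of 5.60 for covered length and 5.26 for peaks, with 22 arrays covered at least as much in siORCA. It turned the arrays of chromosomes 3 (5.65), 7 (11.3), 9 (29.4), 10 (6.38), 13 (1.10), 14 (3.26), 17 (1.59), 21 (1.95) and 22 (2.79). Since the limit removed most control peaks and few siORCA peaks, these turns say little about single arrays. Equal numbers of peaks by −log10 p removed control peaks alone, which left 22094 control and 29626 siORCA peaks in the arrays. No ratio could fall by this. The ratio of covered length was 1.25, and the arrays of chromosomes 7 (1.15), 10 (1.03), 14 (1.05) and 17 (1.02) turned. Those turns therefore also say little about single arrays. Windows narrowed by 100 kb on each side turned chromosome 10 (1.04). The ratio of peaks was 0.997 without the array of chromosome 1 and 0.979 without those of chromosomes 1, 5 and 19, an alternative chosen after seeing the data.

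The part of the siORCA length under control peaks was 52.1% with the limit on q, 12.1% with that on fold, 54.9% with equal numbers, 61.9% in narrowed and 63.4% in widened windows, 64.8% without chromosome 1 and 66.2% without chromosomes 1, 5 and 19. As peaks overlapped it was 81.7% (at least 1 bp) and 59.7% (at least 50% of the length). The part of the control length under siORCA peaks was 50.4% with the limit on q, 68.7% with equal numbers, 68.0% in narrowed and 65.5% in widened windows, 66.6% without chromosome 18 and 67.8% without chromosomes 1, 5 and 19, and as peaks 85.5% and 66.3%. The commonest distance between peak starts gave a common spacing in 5 arrays. The limits on q and fold keep fewer peaks, equal numbers keep fewer control peaks, and otherwise the cause was not tested. The other alternatives kept the direction of the 5 summary values. No depth was given, so lists of equal depth could not be compared.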
